A study of Mus musculus with 19 samples.

Results

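Layer 6b is the thin sheet of neurons between layer 6 and the white matter of the mouse neocortex, and 7 genes known to mark its neurons are described here: Ctgf, Cplx3, Nxph4, Moxd1, Nr4a2, Svil and Inpp4b. They were chosen by name out of 24130 Ensembl genes with an entry in any library, and all 7 were listed in every library. Polyadenylated RNA had been sequenced from primary somatosensory cortex (S1) of male C57BL/6 mice aged 56 days, cut by hand into 6 adjacent strips. From the surface inwards, A held mostly layers 1 to 3 and B mostly layer 4. Segments C and D covered the upper and lower part of layer 5, and E and F layers 6 and 6b. Pools of 8 mice made up libraries A, C, D, E and F, while B1 and B2 came from separate litters of 4 mice, so B was the only segment with replicates (n = 2). A strip is not a pure layer, and 12 further samples, from dorsal and lateral cortex, were not used here.

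Neurons of layer 6b in the adult are largely the survivors of the embryonic subplate, a transient layer that is among the first of the cortex to be born and through which thalamic axons wait and pass before they enter the cortical plate. Several proteins by which these neurons are recognised belong to families with other roles in the rest of the cortex. The 7 genes encode a secreted matrix-associated protein of the CCN family (Ctgf, named Ccn2 in newer annotations), a complexin that binds the SNARE complex at the presynaptic terminal (Cplx3), a secreted neurexophilin related to ligands of the neurexins (Nxph4), a relative of the copper-dependent dopamine beta-hydroxylase (Moxd1), an orphan nuclear receptor also known as Nurr1 (Nr4a2), an actin-binding protein of the villin and gelsolin superfamily (Svil) and a phosphatase of inositol lipids (Inpp4b).

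Levels are given in FPKM, fragments per kilobase of transcript scaled to the mapped fragments of the library, so genes can be compared on this scale per length. Each deposited FPKM carries a 95% interval that covers the error of the estimate within a library and no variation between mice. Estimated depth ran from 31.4 M mapped fragments (library A) to 75.2 M (library B2), with 43.9 M in E and 55.6 M in F. The median 95% interval over classifiable genes, whose widest interval may not exceed 50% of the mean, was 10.8% wide in B2 and 16.8% in A, relative to the FPKM. Of the 7 genes, Ctgf, Cplx3, Nxph4 and Moxd1 were classifiable, whereas the widest interval reached 109% of the mean for Nr4a2, 142% for Svil and 191% for Inpp4b. All 7 had a mean of at least 1 FPKM over the 7 libraries, but for Svil and Inpp4b this rested on F, since 5 of the 7 had such a mean without that library. Between B1 and B2 the absolute log2 ratio of classifiable genes was 0.31 at the median and 1.18 at the 95th percentile, and those of the 7 genes lay between -0.11 and 0.32.

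Promoter sequences are shown for a pair of these genes that shared a maximum in F but differed in base composition. RefSeq promoters of GRCm38.p6, 250 bases before to 50 bases after the gene's start, were at hand for Cplx3, Nr4a2, Moxd1 and Inpp4b, and were searched on both strands for 4 motifs. The E-box was searched as CACGTG. The letters used for the GC box were GGGCGG. For the TATA box the search string was TATAAA. The site bound by monomers of NR4A receptors was searched as AAAGGTCA. Capitals mark every match, and GC boxes may overlap. The first promoter is chr9:57606232-57606531 on the minus strand, and the second is chr2:57123954-57124253 on the minus strand.
Cplx3: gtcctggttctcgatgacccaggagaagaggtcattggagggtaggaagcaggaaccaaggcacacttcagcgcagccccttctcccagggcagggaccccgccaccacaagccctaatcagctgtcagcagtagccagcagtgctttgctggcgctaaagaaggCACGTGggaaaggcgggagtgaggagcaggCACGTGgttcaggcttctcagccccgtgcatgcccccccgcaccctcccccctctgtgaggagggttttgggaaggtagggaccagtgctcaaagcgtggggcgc
Nr4a2: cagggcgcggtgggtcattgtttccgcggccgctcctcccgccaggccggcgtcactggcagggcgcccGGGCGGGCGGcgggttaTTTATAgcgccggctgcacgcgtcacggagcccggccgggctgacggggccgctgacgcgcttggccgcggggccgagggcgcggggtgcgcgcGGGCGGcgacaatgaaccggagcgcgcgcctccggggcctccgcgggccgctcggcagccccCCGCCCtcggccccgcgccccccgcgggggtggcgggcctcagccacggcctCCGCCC
The Cplx3 promoter held 2 E-boxes, which begin 85 and 55 bases before the start, and none of the other motifs. The Nr4a2 promoter held 5 GC boxes, of which the first pair overlap, and a TATA box on the opposite strand that begins 164 bases before the start. It contained 52 CpG dinucleotides and was 81.7% G and C, against 11 CpG and 62.7% for Cplx3, 13 and 61.7% for Moxd1 and 25 and 68.3% for Inpp4b. Over the 32851 promoters of the table the medians were 7 CpG and 52.7%, and 99.4% of them held fewer CpG than that of Nr4a2. Moxd1 held 3 GC boxes and Inpp4b 2, with no E-box or TATA box in either. None of the 4 windows held the NR4A site. Of all promoters 7.15% held the E-box, 35.7% the GC box, 13.6% the TATA box and 1.51% the NR4A site, so no motif searched here was shared by all 4 genes. A match describes the letters of the window alone.

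All 7 genes had their highest FPKM in F, and the 7 deposited intervals of F lay above those of E, though with intervals widened 2 times those of Svil and Inpp4b overlapped and 5 remained separate. Ctgf, Cplx3 and Nxph4 rose from E to F by 5.34-fold to 6.67-fold. They were nearly confined to the deepest pair of segments, which held 91.7% to 98.0% of their summed expression. Moxd1, Nr4a2, Inpp4b and Svil rose by 2.86-fold to 3.46-fold, and E and F held 53.4% to 81.7% of theirs. All 7 genes were listed in every library. The background to these counts was broad for position and narrow for size. F was the highest segment for 31.9% of the 11409 classifiable genes and 32.4% of the 13164 genes that averaged 1 FPKM or more. F lay above E with nonoverlapping intervals for 28.7% and 24.7% of them, and was at least 2-fold E for 4.37% and 3.80%. The median log2 ratio of F to E was 1.79 over the 7 genes and 0.03 over all genes of at least 1 FPKM, whose 95th percentile was 0.86. In bulk tissue of this kind, a change in the number of cells of a type and a change in RNA per cell cannot be told apart.

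**Figure D1:**
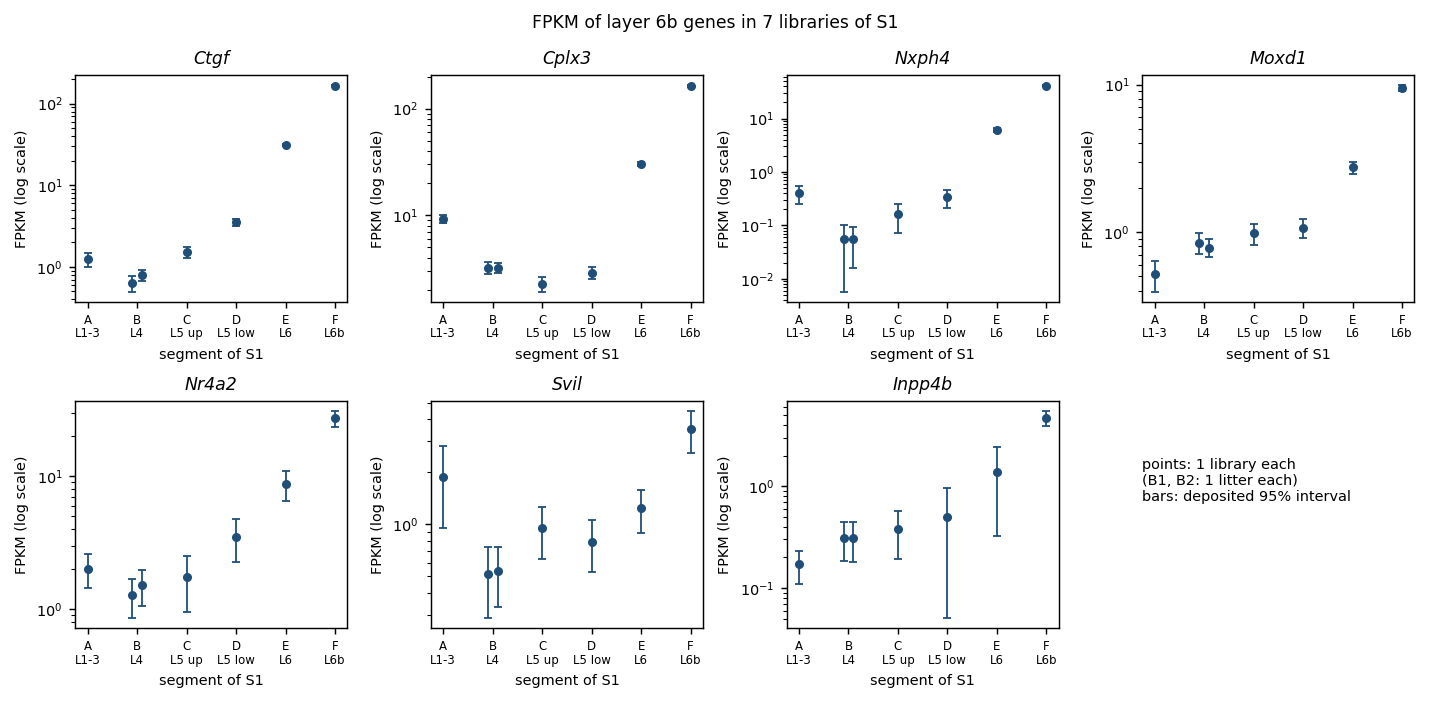
FPKM on a log axis of the 7 layer 6b genes in the 7 libraries of S1, with points for single libraries (B1 and B2 side by side) and bars for the deposited 95% interval. Every gene is highest in F. Ctgf, Cplx3, Nxph4 and Svil stand higher in A than in B with separate intervals, at 1.24, 9.24, 0.401 and 1.87 FPKM in A. The height of Svil in A rests on 2 transcripts listed in A alone. Moxd1 and Inpp4b are lower in A than in B.

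Ctgf (ENSMUSG00000019997, mm9 chromosome 10, 24315248 to 24318489, plus strand) spans 3.24 kb. Its level was 1.24 FPKM in A, 0.634 and 0.794 in libraries B1 and B2, 1.51 in C and 3.53 in D, then 31.4 in E and 167 in F. The levels thus climbed from B to F at every segment, and the intervals of neighbours in that order overlapped only between A and C. The ratio of F to E was 5.34 (95% interval 5.15 to 5.53, estimation error, 1 library each), and that of E to D was 8.89 (8.06 to 9.81). A noncoding gene, Gm15270, overlaps Ctgf and was listed at 0.240 FPKM in B2 to 1.89 in F. No strand setting is given in the sources used here, so reads of the overlap cannot be assigned to either gene, but the level of Gm15270 was far below that of Ctgf in E and F.

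Cplx3 (ENSMUSG00000039714, mm9 chromosome 9, 57449183 to 57454038, minus strand) reached nearly the same level as Ctgf in the deep segments. It was measured at 9.24 FPKM in A, 3.22 and 3.22 in libraries B1 and B2, 2.29 in C and 2.90 in D, then 30.5 in E and 164 in F. Its lowest segment was C rather than B, and A stood above B, C and D with intervals that did not overlap theirs. The ratio of F to E was 5.39 (5.15 to 5.64) and that of E to D was 10.5 (9.14 to 12.1). F exceeded the lowest library 71.8-fold for Cplx3 and 264-fold for Ctgf.

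Nxph4 (ENSMUSG00000040258, mm9 chromosome 10, 126962529 to 126971615, minus strand) had a lower level and a steeper profile. It was listed at 0.401 FPKM in A, 0.0547 and 0.0555 in libraries B1 and B2, 0.163 in C and 0.335 in D, then 6.20 in E and 41.3 in F. The ratio of F to E was 6.67 (6.08 to 7.31), and that of E to D was 18.5 (12.7 to 26.9). With 85.2% of the expression summed over 6 segments in F, it ranked 4 among the 13164 genes of at least 1 FPKM, ahead of Ctgf at rank 5 (81.4%) and Cplx3 at rank 6 (77.3%). E and F together held 98.0% for Nxph4, 96.6% for Ctgf and 91.7% for Cplx3.

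Moxd1 (ENSMUSG00000020000, mm9 chromosome 10, 23943323 to 24022596, plus strand) was present at a low level in all segments. The values were 0.515 FPKM in A, 0.847 and 0.783 in libraries B1 and B2, 0.980 in C and 1.07 in D, then 2.74 in E and 9.49 in F. They increased from A to F at each segment, although the intervals of B, C and D overlapped between neighbours. The ratio of F to E was 3.46 (3.11 to 3.86) and that of E to D was 2.56 (2.14 to 3.06). Of its summed expression 60.8% lay in F and 17.6% in E.

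Nr4a2 (ENSMUSG00000026826, mm9 chromosome 2, 56959241 to 56976552, minus strand) had 2.01 FPKM in A, 1.27 and 1.51 in libraries B1 and B2, 1.74 in C and 3.51 in D, then 8.73 in E and 27.1 in F. In the order of levels the intervals of D, A, C and B overlapped between neighbours, while F, E and D were separate. The ratio of F to E was 3.10 (2.34 to 4.12). D already stood at 12.9% of the F level, against 2.11% for Ctgf, 1.76% for Cplx3 and 0.810% for Nxph4. The other genes were nearer to Nr4a2 or above it, at 10.7% for Inpp4b, 11.3% for Moxd1 and 22.5% for Svil.

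Inpp4b (ENSMUSG00000037940, mm9 chromosome 8, 84239099 to 84646634, plus strand) spans 408 kb. It was estimated at 0.172 FPKM in A, 0.313 and 0.312 in libraries B1 and B2, 0.379 in C and 0.503 in D, then 1.38 in E and 4.71 in F. The order was that of Moxd1, but from A to E the intervals of every pair of neighbours overlapped, and only F stood clear. The ratio of F to E was 3.40 with a wide interval (1.55 to 7.44).

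Svil (ENSMUSG00000024236, mm9 chromosome 18, 4920538 to 5119297, plus strand) was the least specific. Its level was 1.87 FPKM in A, 0.514 and 0.534 in libraries B1 and B2, 0.944 in C and 0.789 in D, then 1.23 in E and 3.51 in F. F and A were the highest segments, with overlapping intervals, and A held 21.1% of the summed expression beside 39.6% in F. The ratio of F to E was 2.86 (1.94 to 4.22), and that of F to A, the next highest segment, was 1.87. By its share in F Svil ranked 266 of 13164 genes, whereas Inpp4b, Nr4a2 and Moxd1 ranked 22, 23 and 25. Svil and Inpp4b are among the ranked genes through their level in F alone.

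The size of the step from E to F split the genes. The level in E was 15.0% of that in F for Nxph4, 18.6% for Cplx3 and 18.7% for Ctgf, but 28.9% for Moxd1, 29.4% for Inpp4b, 32.2% for Nr4a2 and 35.0% for Svil. Among the 21 pairs of genes, the ratio between their steps had a 95% interval above 1 in 11. Nxph4 exceeded Ctgf by 1.25-fold (1.13 to 1.38) and Cplx3 by 1.24-fold (1.12 to 1.37), and it exceeded Svil by 2.33-fold (1.56 to 3.47). Ctgf and Cplx3 could not be separated, with a ratio of 1.01 (0.953 to 1.07). Ctgf and Cplx3 also exceeded Moxd1, Nr4a2 and Svil, by 1.54-fold to 1.88-fold. No pair among Moxd1, Nr4a2, Svil and Inpp4b had an interval above 1, and the 6 pairs with Inpp4b all included 1. The bounds allow a ratio of 0.462 to 2.24 between Moxd1 and Inpp4b, so equal steps are not shown. These intervals carry estimation error alone, since E and F had 1 library each. Among all 13164 genes of at least 1 FPKM, the step ranked 6 for Nxph4, 14 for Cplx3, 15 for Ctgf, 39 for Moxd1, 45 for Inpp4b, 81 for Nr4a2 and 125 for Svil. Inpp4b and Svil are in that set through their level in F alone, which is part of the value ranked.

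The step from D to E gave nearly the same order of genes, from 18.5-fold for Nxph4 to 1.56-fold for Svil, but its size relative to the step from E to F differed between genes. As a log2 ratio, the step from E to F was smaller than that from D to E by 0.74 for Ctgf (95% interval of the difference -0.90 to -0.57), by 0.97 for Cplx3 (-1.20 to -0.73) and by 1.47 for Nxph4 (-2.06 to -0.89). For Moxd1 it was larger by 0.44 (0.08 to 0.79). The differences for Nr4a2 (0.32, -0.59 to 1.22), Svil (0.88, -0.13 to 1.89) and Inpp4b (0.31, -2.27 to 2.88) included 0. These intervals hold estimation error alone, since D, E and F had 1 library each. On the linear scale the picture was the reverse for the steep genes, because Ctgf gained 27.8 FPKM from D to E and 136 from E to F, Cplx3 27.6 and 134, and Nxph4 5.86 and 35.1. Each of the 7 steps from E to F, at 1.52 to 2.74 on the log2 scale, was larger than the 95th percentile of 1.18 between the replicates B1 and B2. Of the differences between the steps from D to E and from E to F, only that of Nxph4 (1.47) exceeded this percentile in size. That percentile was taken over classifiable genes, which Nr4a2, Svil and Inpp4b are not.

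**Figure D2:**
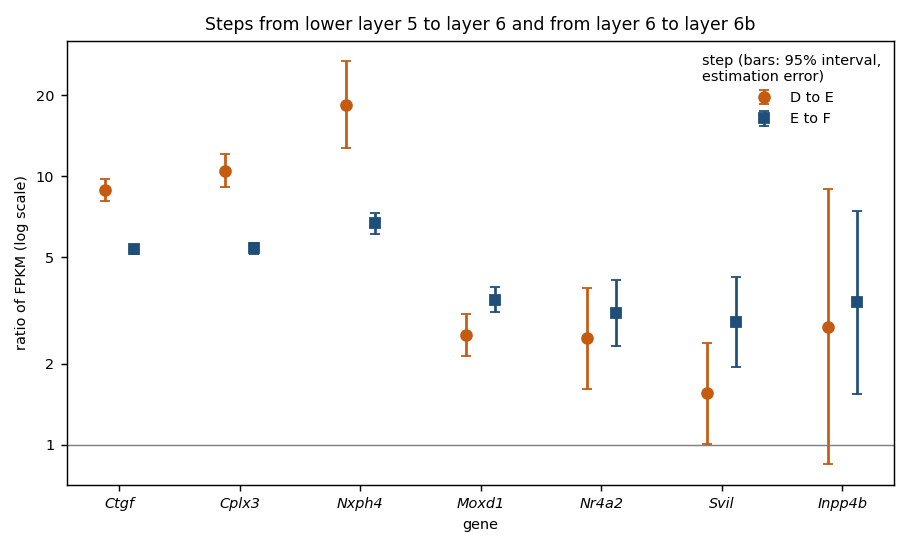
Ratio of FPKM on a log axis for the step from D to E (circles) and from E to F (squares) of each gene, with bars for the 95% interval of the estimate. For Ctgf, Cplx3 and Nxph4 the circle lies above the square, at 8.89, 10.5 and 18.5 against 5.34, 5.39 and 6.67, whereas the other 4 genes have the square above the circle, which turns for Nr4a2 and Inpp4b in the loci assembled without annotation.

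A trend over the 6 positions was tested in all 7 libraries with limma on log2(FPKM + 0.1), with linear and quadratic terms. All 4 classifiable genes passed at an adjusted p of at most 0.05 (Benjamini-Hochberg over 11409 genes), with 7.74e-04 for Ctgf, 0.00152 for Nxph4, 0.00209 for Cplx3 and 0.00318 for Moxd1. Of all classifiable genes 43.5% passed this test. Among genes of at least 1 FPKM, where 43.7% passed, all 7 did so in limma, with adjusted p of 7.69e-04 for Nr4a2, 0.00210 for Inpp4b and 0.0167 for Svil. Inpp4b and Svil entered that fit through their level in F alone, so their calls are no independent support. Nxph4 was classifiable only with F, because its interval in E (5.66 to 6.73 FPKM) is wider than 50% of its mean without F, 1.20 FPKM. Its call among classifiable genes is therefore no independent support either. With a linear term alone, 3 of the 4 passed, and Cplx3, which is raised in A, did not (adjusted p = 0.0794 by limma). The contrast of F with E in a limma fit of 6 segments called none of the 7 and 0% of all classifiable genes, with 389 genes at an unadjusted p under 0.05. The only spread in that fit is the difference between B1 and B2, with 1 residual degree of freedom. The fit made no call for steps planted in simulated data either, so its lack of calls says nothing about the 7 genes. Its fitted steps were 2.72 ± 0.27 (log2, SE) for Nxph4, 2.43 ± 0.27 for Cplx3, 2.41 ± 0.32 for Ctgf and 1.76 ± 0.28 for Moxd1, with unadjusted limma p of 0.00191 to 0.00746 and adjusted p from 0.874.

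Genes of other cell types moved over the same step. The 12 oligodendrocyte genes, which encode myelin proteins and enzymes of these cells, were all at least 2-fold higher in F than in E, from 2.44-fold for Aspa to 3.64-fold for Cnp, and their summed level was 344 FPKM in A, 875 and 890 in libraries B1 and B2, 1716 in C and 2298 in D, then 4268 in E and 13002 in F. The steps of Ctgf, Cplx3 and Nxph4 were larger than those of all 12, with lower bounds above all 12. That of Moxd1 was larger than 11 and its lower bound exceeded 10, whereas the lower bounds of Nr4a2, Svil and Inpp4b exceeded 0 of the 12. Of 6 striatal genes 3 were at least 2-fold higher in F, with the dopamine receptor gene Drd2 at 7.60-fold, and the sum of the list rose from 43.8 FPKM in E to 79.9 in F. Of 6 astrocyte genes Gfap, which encodes an intermediate filament, was 6.26-fold higher, at 126 FPKM in F, and the other 5 less than 2-fold. In contrast, the 8 pan-neuronal genes had a median ratio of 0.828, with intervals of F below those of E in 7. The 7 corticothalamic genes of layer 6 had a median of 0.932, from 0.824 for Syt6 to 1.14 for Tle4, and summed to 295 FPKM in E and 279 in F. Segment F thus also held the markers of layer 6. None of 5 microglial, 6 endothelial, 5 mural or 6 interneuron genes was at least 2-fold higher in F, and of 5 fibroblast genes Col1a1 was, at 2.33-fold with overlapping intervals. The part of other cell types in the steps of the 7 genes was not tested.

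**Figure D3:**
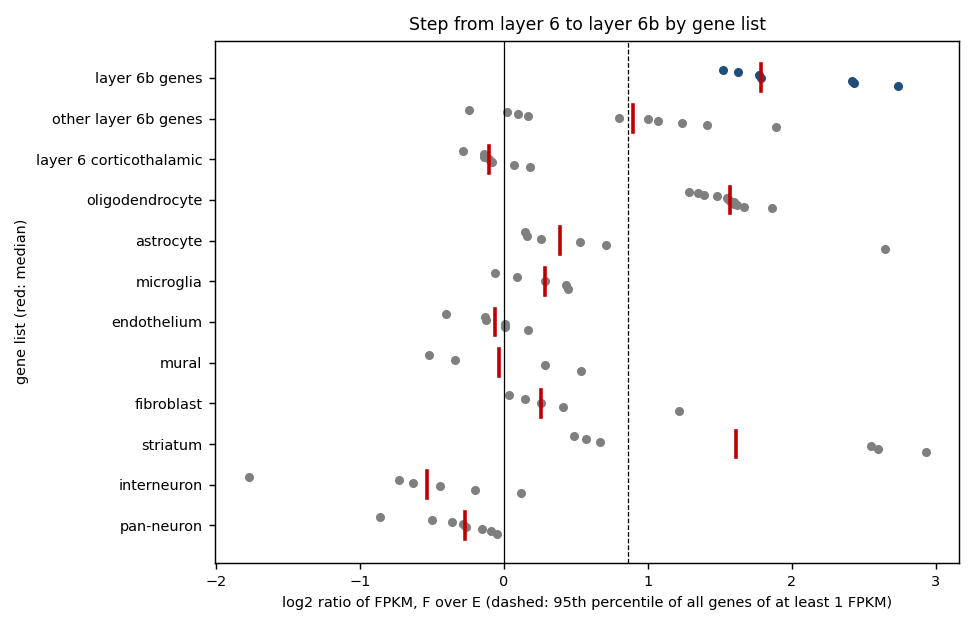
Log2 ratio of FPKM, F over E, for the genes of 12 lists (points) with the median of each list (red), and the 95th percentile of all genes of at least 1 FPKM, 0.86, as a dashed line. The 7 layer 6b genes and the 12 oligodendrocyte genes lie wholly to the right of that line, with medians of 1.79 and 1.57.

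Ctgf, Cplx3, Nxph4 and Svil stood higher in A than in B1 and B2, with separate intervals. For Svil this rested on 2 short transcripts listed in A alone. Without them it had 0.545 FPKM in A, 0.515 in B1 and 0.534 in B2. For Nxph4 the levels were 0.401 FPKM in A, 0.0547 in B1 and 0.0555 in B2. In segment A, the sums of the lists of vessel-wall and connective tissue cells were at their highest. The 5 mural genes summed to 59.0 FPKM in A and 21.5 to 41.0 in the other libraries, with no entry for Tagln in C to F, and the 5 fibroblast genes summed to 12.8 FPKM in A and at most 2.65 elsewhere. Single genes differed within both lists. The mural genes Acta2 (23.9 FPKM), Tagln (14.7) and Myh11 (3.57) had their highest segment in A, whereas Rgs5 (14.8) and Pdgfrb (1.97) had their lowest. The fibroblast genes Col1a1, Col1a2, Col3a1 and Dcn were highest in A, and Lum (0.164 FPKM) was lowest there. The 6 interneuron genes summed to 487 FPKM in A, between the 438 of B1 and the 653 of D. That sum joins genes that differed. Npy (211 FPKM) and Vip (15.2) had their highest segment in A, Gad1 (15.9) and Gad2 (7.15) their lowest, and Sst and Pvalb neither. Whether any of these moved the level of Ctgf, Cplx3, Nxph4 or Svil in A was not tested.

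Other genes with known expression in layer 6b followed the 7 in part. Of 10 such genes 8 were highest in F, 5 were at least 2-fold higher in F than in E, and their median ratio was 1.87. That count was 3 when libraries were scaled to equal sums without mitochondrial genes, with Drd1 and Col8a1 near the limit. Tmem163, a zinc transporter gene, rose 3.71-fold, from 7.17 to 26.6 FPKM, without a step from D (0.927, 0.849 to 1.01). Lpar1, which encodes a receptor of lysophosphatidic acid and is also expressed by oligodendrocytes, stood 2.66-fold higher at 45.5 FPKM, and Nxph3 2.37-fold at 123 FPKM. The dopamine receptor gene Drd1 lay just past 2-fold, at 5.87 FPKM in E and 11.8 in F, and Col8a1, a collagen gene, at 2.10-fold but with 0.224 FPKM in F and its maximum in B. Kcnab1, a potassium channel subunit, was 1.74-fold higher. Chrna5 (1.12), Cdh18 (1.07), Rxfp1 (1.02) and the orexin receptor gene Hcrtr2 (0.846) had intervals in E and F that overlapped.

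Among relatives of the 7 genes with an entry in both E and F, Nxph3 and Gsn were the only ones that rose 2-fold or more from E to F. Among complexins, Cplx1 and Cplx2, the main forms of cortical synapses, were lower in F than in E, at 193 and 296 FPKM in F, with ratios of 0.699 and 0.730, and Cplx4 had at most 0.0637 FPKM. Cplx3 was 2.90 FPKM in D beside 508 for Cplx1, but 164 beside 193 in F. Among neurexophilins, Nxph1 peaked in D at 18.1 FPKM and had a ratio of F to E of 0.667, and Nxph2 had one of 0.496 at 0.614 FPKM in F, while Nxph3 and Nxph4 rose together. Of the other CCN genes, Ccn3 reached 34.5 FPKM in F, 1.29-fold its level in E, and Ccn1 2.13 FPKM, 1.46-fold, both with separate intervals. Ccn4 had 1.56 FPKM in F with overlapping intervals, Ccn5 had no entry in E and 0.0895 FPKM in F, and Ccn6 had none in F.

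Nr4a1 was nearly flat, from 8.76 FPKM in B2 to 16.3 in B1, with a ratio of F to E of 0.952, and Nr4a3 reached 4.75 FPKM in F with a ratio of 1.08, so Nr4a2 alone of the 3 NR4A genes had separate intervals between E and F. All 3 NR4A genes, Nr4a2 included, can be induced as immediate early genes. None of 7 further immediate early genes was 2-fold higher or lower in F than in E, with ratios from 0.751 for Egr1 to 1.08 for Fos. Pam, a copper monooxygenase that amidates peptides, had a ratio of 0.732 at 27.1 FPKM in F, and Dbh did not exceed 0.107 FPKM. The paralog Inpp4a stood far above Inpp4b in F, at 77.4 FPKM beside 4.71, with a ratio of F to E of 1.44, but its replicates differed strongly at 84.4 FPKM in B1 and 29.8 in B2. Of the 8 villin and gelsolin genes Gsn, which oligodendrocytes express, rose 2.63-fold from 39.9 to 105 FPKM, close to the 2.86-fold of Svil, while Flii had a ratio of 1.34 and the other 5 had levels of at most 1.07 FPKM in F.

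**Figure D4:**
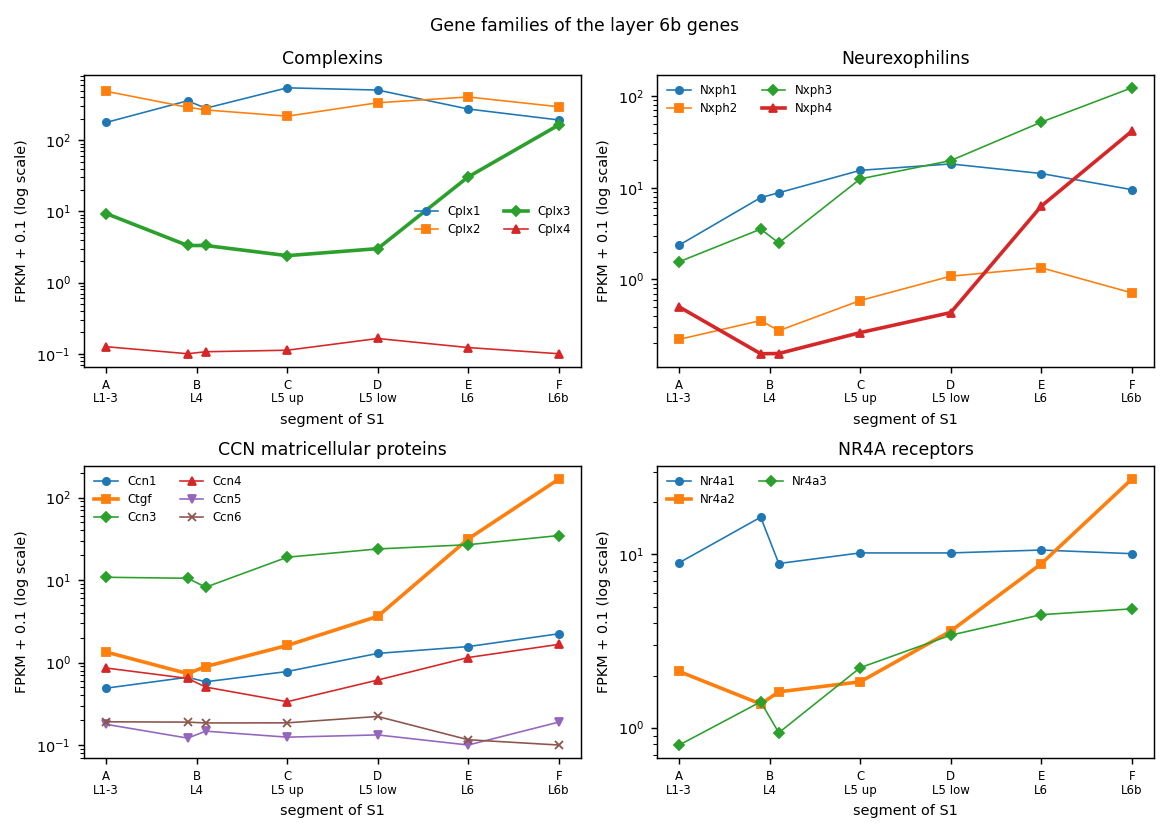
FPKM + 0.1 on a log axis by segment for the complexins, neurexophilins, CCN genes and NR4A genes, with thick lines for Cplx3, Nxph4, Ctgf and Nr4a2. Each thick line rises into F, and Cplx3 comes up to Cplx1 there, at 164 and 193 FPKM.

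Each gene's profile of shares over the 6 segments was compared with those of classifiable genes of at least 1 FPKM by Euclidean distance in percentage points. Of 10143 candidates, those nearest to Ctgf were Nxph4 (4.74) and Cplx3 (5.71), then the more distant Syndig1l. Nearest to Cplx3 were Ctgf, Syndig1l (8.32) and Nxph4 (8.96), and nearest to Nxph4 were Ctgf, Cplx3 and Thbs4 (10.6), which had 92.6% of its expression in F. Ctgf was thus the nearest to both Cplx3 and Nxph4, and Nxph4 was the nearest to Ctgf. Nxph4 was a candidate only through its level in F, since it is classifiable only with F. Its place among these neighbours is therefore no independent support. Moxd1 lay nearest to Hapln2 (2.76), Nipal4 (2.90) and Tmem63a (3.44), with ratios of F to E of 3.37, 3.35 and 3.23. These ratios fell within the range of the 12 oligodendrocyte genes, 2.44 to 3.64. Whether such neighbours mark oligodendrocytes or layer 6b neurons was not tested. The nearest to Inpp4b were Moxd1 (3.14), Anln (3.50) and Hapln2 (3.72), and to Nr4a2 they were Adra2a (3.98), Moxd1 (4.12) and Nipal4 (4.19). Thbs4 and Nipal4 reached a mean of 1 FPKM only through their level in F, so their places are no independent support either. Svil had the most distant first neighbour, Gstm7 (6.31), followed by Gm7204 (7.12) and Gm8172 (7.53), and its profile included the transcripts listed in A alone. These distances describe 7 libraries and carry no test.

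Ctgf, Cplx3, Nxph4 and Moxd1 had a single Ensembl transcript each in the files, so their values were those of that model. Nr4a2 had 5, of which ENSMUST00000028166 was listed in all 7 libraries, with 4.05 FPKM in E and 10.8 in F. ENSMUST00000112627 was listed at 0.726 FPKM in B2, 2.40 in E and 11.1 in F, a ratio of F to E of 4.64 against 2.67 for the former. B1 had no entry for that transcript, and gave 55.1% of its Nr4a2 level to ENSMUST00000067024, which had no entry in B2, so the split among transcripts differed between replicates of a segment.

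Inpp4b had 4 transcripts, none of which was listed in every library. ENSMUST00000109852 made up 67.4% of the level in F, at 3.17 FPKM (2.73 to 3.61), and 45.6% in E, at 0.631 FPKM (0 to 1.37). Its interval in E reached 0, so its part there is poorly determined. It had no entry in A, B1, B2 and C. ENSMUST00000109851 made up all of the level in A and had no entry in F. Minor transcripts can be absent from the tables because none is listed below 5.0% of the main transcript of its locus.

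Svil had 9 transcripts, and its level in A rested on a pair of short ones. ENSMUST00000146723 (507 nt) and ENSMUST00000153016 (497 nt) were listed at 0.820 and 0.510 FPKM in A and had no entry in any other library, and together made up 70.9% of the level in A. Without them Svil had 0.545 FPKM in A, 1.23 in E and 3.51 in F, its share in A fell from 21.1% to 7.23% and that in F rose from 39.6% to 46.6%. The transcript ENSMUST00000143254, listed in all 7 libraries, ran from 0.147 FPKM in C to 0.486 in E and 1.22 in F.

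**Figure D5:**
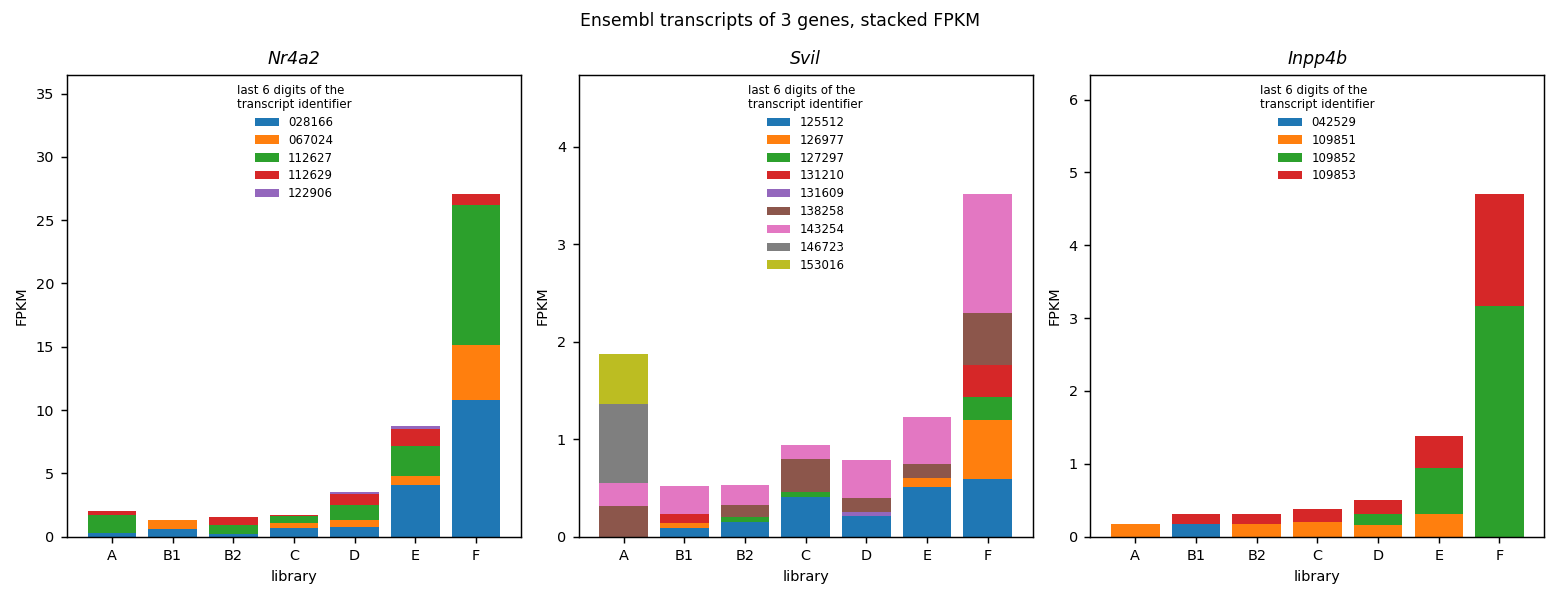
Stacked FPKM of the Ensembl transcripts of Nr4a2, Svil and Inpp4b in the 7 libraries, with colours for transcripts. For Svil ENSMUST00000146723 and ENSMUST00000153016 appear in A alone, at 0.820 and 0.510 FPKM, and for Inpp4b ENSMUST00000109852 makes up 3.17 FPKM in F.

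The loci assembled without annotation gave the same direction for all 7 genes, with F highest in each. Only 1 locus per gene is given, although 125 overlapped Inpp4b, 80 Svil, 26 Moxd1 and 7 Nr4a2. The other loci are not described, so these ratios hold for the locus given. Their FPKM were higher than those of the Ensembl models, so ratios alone are compared. The ratio of F to E was 5.64 for Ctgf, 5.07 for Cplx3, 4.25 for Moxd1, 3.72 for Nr4a2, 3.21 for Svil and 3.19 for Inpp4b, and for Nxph4 it was 11.2 in place of 6.67. For Inpp4b the assembled locus spanned 784 kb (mm9 chromosome 8, 83866312 to 84650021) against 408 kb for the Ensembl model, and its ratio of E to D was 10.6 in place of 2.75. The E to D ratio of the assembled locus was also larger for Ctgf, at 19.8 in place of 8.89, for Nxph4, at 42.8 in place of 18.5, for Nr4a2, at 4.52 in place of 2.49, and for Svil, at 2.45 in place of 1.56. With these loci the step from D to E was thus the larger one for Nr4a2 (4.52 against 3.72) and Inpp4b (10.6 against 3.19), the reverse of the Ensembl models, while Moxd1 (3.36 against 4.25) and Svil (2.45 against 3.21) kept the larger step from E to F.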

How the data were processed

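RNA of 7 libraries of S1 was compared, and the 12 dorsal and lateral samples are not analysed here. Per the submitters' processing notes, the authors mapped paired reads with TopHat (version 1.0.13) to mm9 and estimated transcripts with Cufflinks (version 0.8.3). The authors deposited FPKM, with the bounds of a 95% interval, for genes and transcripts of Ensembl release 57 and for loci assembled de novo. Transcript tables also hold the fraction of a transcript relative to the main one of its locus and the estimated read coverage, as deposited by the authors. Reads of 50 nt from both ends were assumed when depth was estimated from coverage over FPKM, and part of F had longer reads, which makes its depth an upper value. Missing entries were set to 0, and entries of a gene at several places were summed.

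The members and lists were chosen with earlier results of these data known. Named were all 7 genes and their transcripts, the layer 6b and family lists, the ends of each cell type list, the 3 nearest profiles per gene, and Gm15270, which was added for its overlap after values were seen. Identifiers were matched to current symbols and synonyms. Ratios were given intervals by the delta method from the deposited bounds. limma (3.58.1, R 4.3.3) was run on log2(FPKM + 0.1) with Benjamini-Hochberg adjustment and a threshold of 0.05, and was tested on simulated data, where trends were recovered and the contrast of F with E made no call. These p-values rest on the spread between libraries of different segments or between 2 litters. A share is the FPKM of a segment over the sum of 6 segments, where the B libraries were averaged. Alternatives were the scale of the libraries, folds of 1.5 and 4, widened intervals, pseudocounts of 0.01 and 1, filters, each B library left out, summed transcripts and de novo loci. Protein sequences were not used here.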

Additional observations from a re-analysis of the deposited data

How the results depend on the processing

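The counts of genes higher in F with separate intervals (7 of 7) and highest in F (7 of 7) kept their values when libraries were rescaled by the median of ratios or to equal sums without mitochondrial genes, and the former also with pan-neuronal genes as the scale. With intervals widened 2 times, 5 of the 7 had separate intervals. At a limit of 4-fold, 3 of the 7 genes and 0 of the 10 other layer 6b genes remained above it, since fewer genes reach a higher limit. Shares over all genes are not given for 4-fold, widened intervals or rescaled libraries, so these counts have no background here. With equal sums without mitochondrial genes, 3 of the 10 were at least 2-fold higher, in place of 5. The trend was called for 4 genes among classifiable genes and for 7 with a filter of a mean of at least 1 FPKM or at least 0.1 FPKM, because Nr4a2, Svil and Inpp4b entered the fit. With these filters 5749 of 13164 and 6160 of 17844 genes were called. Over these settings the trend was called for 2132 genes with a linear term alone, 6611 without B1 and 4968 in the fit reported. Across the scales, summed transcripts and de novo loci the ratio of F to E ran from 5.02 to 6.36 for Ctgf, 5.07 to 6.43 for Cplx3, 6.27 to 11.2 for Nxph4, 3.26 to 4.25 for Moxd1, 2.92 to 3.72 for Nr4a2, 2.69 to 3.41 for Svil and 3.19 to 4.06 for Inpp4b. The share of Svil in F ran from 34.9% to 46.6%, the latter from leaving out the transcripts listed in A alone, an alternative chosen after seeing the data. The contrast of F with E could not be fitted without B1 or B2, since no residual degree of freedom was left. No paired analysis was possible because only B had more than 1 library. With E and F as single libraries, the variation between mice at this step is unknown, and genes near 1 FPKM have wide intervals.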
